A study of Mus musculus with 4 samples.

Results

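The genes described here store, move and buffer iron and other metals: the ferritin chains Fth1 and Ftl1, the importers Tfrc and Slc11a2, the phagosomal transporter Slc11a1, the exporter Slc40a1, the haem-degrading enzyme Hmox1, its repressor Bach1, and the metallothioneins Mt1 and Mt2. The members were given as a list of 10 gene symbols, and all 10 were found by symbol among the 28074 symbols of the expression table. All 10 passed the filter on low values and so were among the 12612 genes tested. RNA sequencing was carried out on leukaemic spleen cells of 2 mice, numbered 4050 and 4182, after 3 days of culture with 10 µg/ml R848 (n = 2) or with vehicle (control, n = 2), each mouse giving 1 sample to each group. R848 (resiquimod) is an imidazoquinoline that activates endosomal Toll-like receptors. Both groups carried floxed Dnmt3a, the internal tandem duplication of Flt3 (labelled Flt3ITD/ITD) and Mx1Cre, an interferon-inducible recombinase. The labels give Dnmt3a both as fl/fl and as +/-, which was not resolved here. Both groups were also grown in medium with 20% serum, SCF, IL6 and IL3. The labels used here give no age or strain, and they do not say that the leukaemic cells were purified from other spleen cells. The cells had been frozen and recovered for 24 hours before treatment. Where 2 values are given for a group below, that of mouse 4050 comes before that of mouse 4182.

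Cells take up transferrin-bound iron through the transferrin receptor, and a divalent metal transporter carries it from the endosome into the cytosol. There it is used, stored in the ferritin shell or exported through ferroportin. When cytosolic iron is low, iron regulatory proteins bind a short RNA hairpin, the iron-responsive element, and block translation of ferritin and ferroportin mRNA while protecting transferrin receptor mRNA from decay. Macrophages of the spleen are known for recycling the iron of aged red cells through haem oxygenase and ferroportin, and activated macrophages are known for withholding iron from microbes.

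The iron-responsive elements are shown because they tie the storage, uptake and export genes to the same regulators. The search took a C, 5 bases, the loop CAGTGN and 5 bases pairing with the first 5 (G-T pairs allowed), on the transcript strand. It was run on the transcript of each gene that GENCODE M21 (GRCm38) numbers first. Of the 10 genes, 4 had a match, 7 matches in all. Of 21877 protein-coding genes, 1.34% had a match in any transcript, without regard to position in the transcript. The capitals mark the 6-base loop, and the sequences run 5′ to 3′ as DNA letters.
Fth1: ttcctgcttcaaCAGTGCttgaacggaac
Ftl1: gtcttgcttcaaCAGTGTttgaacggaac
Slc40a1: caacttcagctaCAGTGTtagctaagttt
Tfrc (match 1): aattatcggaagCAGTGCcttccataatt
Tfrc (match 2): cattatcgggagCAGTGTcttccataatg
Tfrc (match 3): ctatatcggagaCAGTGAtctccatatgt
Tfrc (match 4): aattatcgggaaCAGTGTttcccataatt
The matches of Fth1 (chr19:9982732-9982760, plus strand), Ftl1 (chr7:45459779-45459807, minus strand) and Slc40a1 (chr1:45925465-45925493, minus strand) lie in the leader before the coding sequence. The 4 of Tfrc lie in its trailer on the plus strand of chromosome 16, from 32631219 to 32631738. Over the 29 bases printed, the ferritin chains differ by T1G, C4T and C18T, counted from 1 at the 5′ end with the Fth1 base first, and C18T is the last base of the loop. The other 6 genes, Slc11a2 among them, had no match to these letters in that transcript.

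The linear values, named FPKM by the authors, summed to 958275 and 962001 in the R848 samples and to 955395 and 950530 in the controls, and the depth behind them is unknown. Differences below are of log2(FPKM + 1), R848 minus control, which understates the change of low genes. Among all genes tested, limma called 1.47% higher and 0.381% lower with R848 at an adjusted p under 0.05. With the mouse as a block, which pairs the samples of 1 animal, it called 3.40% higher and 1.90% lower. The median difference over all genes tested was -0.08. In bulk samples, fewer cells of a type and less RNA per cell cannot be told apart.

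Markers of cell types that the cultures could hold were measured as lists. Of 11 tested markers of resident macrophages, 5 were called higher and 0 lower (9 and 0 with the block). In both mice 9 were higher and 1, Axl, was lower (log2 differences of -1.65 and -0.13, limma unadjusted p = 0.0372). In control Marco had 1.32 and 0.125 FPKM and Siglec1 0.849 and 0.858 FPKM, and both passed the filter on low values only through R848. The summed FPKM of the list was 717 and 808 with R848, against 273 and 226 in control. None of that list was listed at 0 in all samples, and Timd4, with 0.0773 to 0.197 FPKM in the 4 samples, was the lowest. Of 9 tested B and plasma cell markers 7 were called higher and all 9 were higher in both mice (sums of 775 and 666 FPKM with R848, against 34.3 and 35.3 in control). Of 4 tested T and NK cell markers 2 were called higher (8.54 and 12.1 FPKM with R848, against 3.04 and 4.49 in control). Neither the 10 neutrophil markers (94174 and 52385 FPKM with R848, against 83443 and 67524 in control) nor the 7 tested progenitor markers (531 and 472 FPKM with R848, against 499 and 522 in control) had a member called by limma without the block. At an unadjusted p under 0.05, 1 neutrophil and 2 progenitor markers were lower, beside 798 of all 12612 genes tested. With the block 2 progenitor markers, Cd34 and Meis1, fell. The progenitor sum was mostly Myb, Cebpa and Spi1, so it says little about the lower genes. Of the 7 tested progenitor markers 3 were lower and 1 was higher in both mice, beside 38.8% and 22.1% of all genes tested. Flt3 had 0.331 and 0.0942 FPKM with R848, against 1.57 and 1.92 in control. It was below the filter on low values and so not tested. Of the erythroid markers, Hbb-bs, Hbb-bt and Ahsp were not matched, so nothing is said of them. The 9 matched were low, with a sum of 12.9 and 7.42 FPKM with R848, against 10.9 and 10.4 in control. Gata1 was the highest of them in each sample (8.45 and 4.39 FPKM with R848, against 6.53 and 4.39 in control), and Slc4a1, the red cell anion exchanger, was listed at 0 in all 4 samples.

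With R848, Slc11a1 and Fth1 rose, by 6.59-fold and 2.49-fold on the log2(FPKM + 1) scale, while Ftl1, the other ferritin chain, differed by less than its spread. Hmox1 and Slc11a2 were higher in both mice. Without the block they did not pass under the default variance prior, and with the mouse as a block both did. Of the 10 genes 2 were called higher and 0 lower by limma, against the 1.47% and 0.381% of all genes given above, and 4 were called higher and 0 lower with the block, against 3.40% and 1.90%. The R848 and control samples did not overlap for 4 of the 10, all 4 higher with R848, where 13.5% of all genes tested did not overlap in that direction and 28.8% in the other. Of the 10 genes, 6 were higher in both mice, 1 was lower in both and 3 went opposite ways, against 22.1% of all genes higher in both and 38.8% lower in both. The 10 genes were chosen with earlier results of these data known, so these shares describe them and give no independent support. The resident macrophage and B-lineage markers given above moved with the treatment too, and their part in these results was not tested. The median difference of the 10 was 0.39, with 0.47 in mouse 4050 and 0.31 in mouse 4182.

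**Figure D1:**
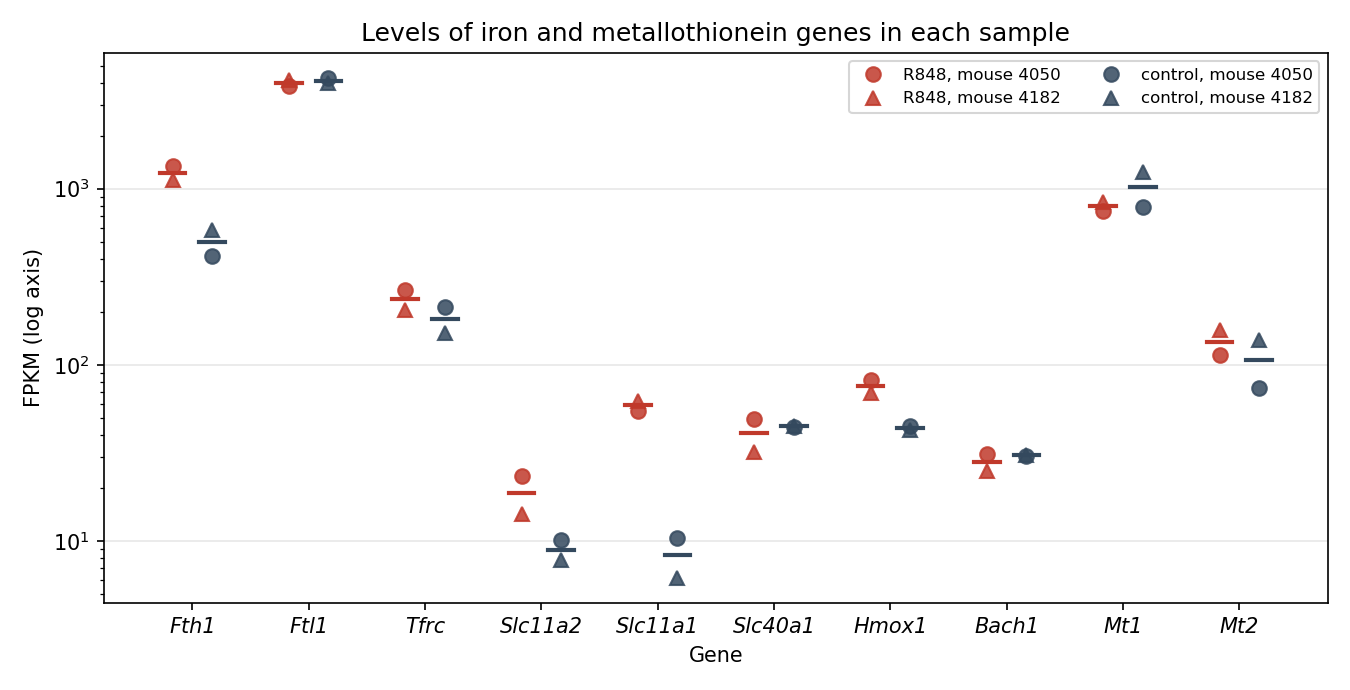
FPKM on a log axis for each gene, R848 in red to the left of control in grey, with circles for mouse 4050, triangles for mouse 4182 and bars at the group means. The R848 points of Fth1, Slc11a2, Slc11a1 and Hmox1 lie above both control points, and those of the other 6 genes overlap with control.

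Ferritin heavy chain mRNA rose, and light chain mRNA did not pass the test. Fth1 (chromosome 19, 9980598 to 9985098, plus strand, protein coding), whose product oxidises ferrous iron so that it can enter the shell, had 1337 and 1120 FPKM with R848, against 414 and 582 in control. Both R848 samples lay above both controls, and the gap was widest in mouse 4050. The group means were 1229 ± 153 FPKM with R848 and 498 ± 119 in control (SD, n = 2 each). On the log2 scale they differed by 1.32 (SE 0.21), with an adjusted p of 0.0266 by limma and of 7.1e-04 with the mouse as a block. The difference was 1.69 in mouse 4050 and 0.94 in mouse 4182.

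Ftl1 (chromosome 7, 45457944 to 45459884, minus strand, protein coding), the chain known for seeding the mineral core, had 3814 and 4141 FPKM with R848, against 4248 and 3967 in control. The groups overlapped and the mice went opposite ways. The log2 difference was -0.05 (95% interval -0.44 to 0.35, limma adjusted p = 0.958). The upper end of that interval lies below the lower end for Fth1, whose interval was 0.83 to 1.8, although the difference between the genes was not itself tested.

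FPKM is a value per length, so the chains can be set beside each other. Fth1 made up 26.0% and 21.3% of the summed Fth1 and Ftl1 FPKM with R848, against 8.88% and 12.8% in control. The sum of both chains was 5151 and 5261 FPKM with R848, against 4662 and 4549 in control. Neither the share nor the sum overlapped between the groups, but with 2 samples per group an exact two-sided permutation test cannot give a p below 0.333, so none is given. Ferritin genes have many processed copies in the mouse genome, and how reads were shared with them is not given. The copies listed in the table, Fth-ps2 and Ftl2, had at most 1.92 and 0.183 FPKM in any sample. The Fth1 call is sensitive to scaling without the block, with adjusted p = 0.0743 after quantile normalization and adjusted p = 0.0674 after median log ratio scaling (differences of 1.40 and 1.39), and it ended without either R848 sample (limma adjusted p = 0.222 without mouse 4050 and 0.203 without mouse 4182). It also ended with a constant variance prior (adjusted p = 0.0549) and with no filter (adjusted p = 0.529). With the block it passed after quantile normalization (adjusted p = 0.00672) and after median log ratio scaling (adjusted p = 0.0039).

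**Figure D2:**
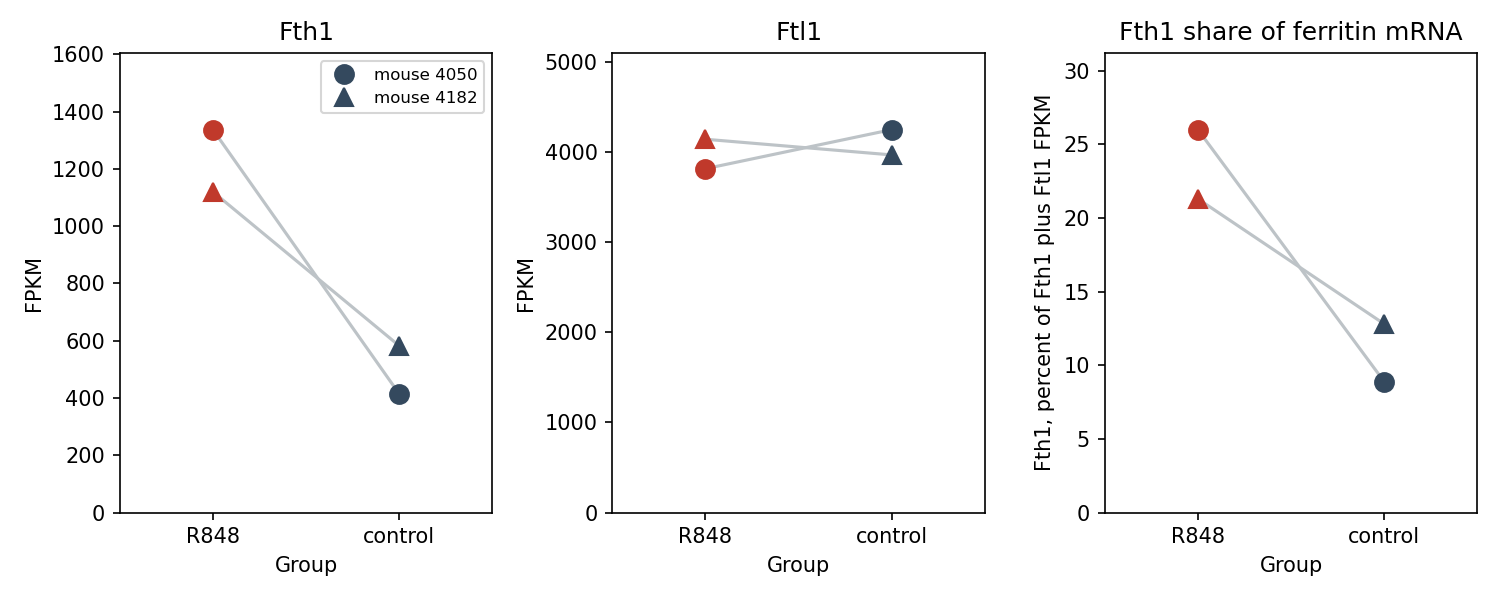
FPKM of Fth1 and of Ftl1, and the share of Fth1 in the sum of both in percent, for R848 on the left and control on the right of each panel, with grey lines joining the samples of 1 mouse. Fth1 and its share are higher with R848 in both mice, and the Ftl1 lines cross.

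Slc11a1 showed the largest difference of the 10 genes. It encodes a proton-coupled transporter of phagosomes in macrophages and neutrophils, known for removing divalent metals from engulfed microbes, and lies on chromosome 1 (74375195 to 74386062, plus strand, protein coding). It had 55.0 and 62.7 FPKM with R848, against 10.4 and 6.2 in control. Both R848 samples lay far above both controls. The means were 58.8 ± 5.49 FPKM with R848 and 8.3 ± 2.96 in control (SD, n = 2 each). On the log2 scale they differed by 2.72 (SE 0.24), with an adjusted p of 0.00368 by limma and of 5.2e-06 with the block. The difference was 2.30 in mouse 4050 and 3.15 in mouse 4182. Slc11a1 ranked 24 of 12612 genes by p-value and 58 by size of the rise. It passed after quantile normalization and after median log ratio scaling (adjusted p = 0.0332 and 0.0239), and lost its call when mouse 4182's R848 sample was left out (adjusted p = 0.0648) or no filter was used (adjusted p = 0.429). Of the 11 resident macrophage markers given above 9 were also higher with R848 in both mice, and the list had a median log2 difference of 1.37. Their part in the Slc11a1 result was not tested. The summed neutrophil markers, mostly S100a8 and S100a9, overlapped between the groups. Of the 10 neutrophil markers 0 were higher and 4 were lower in both mice, beside 22.1% and 38.8% of all genes tested. Their median log2 difference was 0.12 in mouse 4050 and -0.62 in mouse 4182, beside 0.0037 and -0.16 over all genes tested. The part of neutrophils in the Slc11a1 result was not tested either.

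The importers were higher with R848 in both mice by smaller amounts, and Slc11a2 alone passed the test, with the block. Slc11a2, the divalent metal transporter that releases iron from endosomes (chromosome 15, 100387898 to 100425072, minus strand, protein coding), had 23.3 and 14.3 FPKM with R848, against 10.1 and 7.82 in control. The groups did not overlap, and within each group mouse 4050 was the higher. The log2 difference was 0.96 (SE 0.26), with 1.13 and 0.79 in mice 4050 and 4182. It did not pass without the block (limma adjusted p = 0.171) and passed with it (limma adjusted p = 0.0125). Slc11a2 makes transcripts with different ends, and these gene values do not separate them. In control the levels of Slc11a1 and Slc11a2 overlapped, at ratios of 1.03 and 0.793, and with R848 Slc11a1 was the higher at ratios of 2.36 and 4.39 (linear FPKM).

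Tfrc, the transferrin receptor (chromosome 16, 32608920 to 32632794, plus strand, protein coding), carries the 4 trailer matches printed above. It had 267 and 205 FPKM with R848, against 213 and 152 in control. Each mouse was higher with R848, by 0.33 and 0.43 on the log2 scale, but the groups overlapped because mouse 4050 was above mouse 4182 in both. The log2 difference of 0.38 did not pass without the block (95% interval -0.13 to 0.88, limma adjusted p = 0.581) or with it (limma adjusted p = 0.206). Leaving out 1 sample moved it to 0.14 without the control and 0.57 without the R848 sample of mouse 4182, and to 0.62 without the control and 0.19 without the R848 sample of mouse 4050.

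Slc40a1, which encodes the iron exporter ferroportin (chromosome 1, 45908068 to 45926523, minus strand, protein coding), did not change in a common direction. It had 49.5 and 32.1 FPKM with R848, against 44.1 and 45.2 in control. Mouse 4050 was higher and mouse 4182 lower with R848, by 0.16 and -0.48 on the log2 scale. The log2 difference was -0.16 (95% interval -0.68 to 0.36, limma adjusted p = 0.854). The spread was wider with R848 (SD 12.3 FPKM) than in control (SD 0.759 FPKM), with n = 2 each.

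Haem oxygenase was higher with R848 in both mice, and the values of its repressor overlapped between the groups. Hmox1, which breaks haem down to biliverdin, carbon monoxide and iron (chromosome 8, 75093621 to 75100589, plus strand, protein coding), had 82.0 and 69.2 FPKM with R848, against 45.1 and 42.7 in control. The groups did not overlap, and the mice were close in size. The log2 difference was 0.76 (SE 0.16), with 0.85 in mouse 4050 and 0.68 in mouse 4182. Without the block it did not pass under the default variance prior (limma adjusted p = 0.0853) and passed under a robust one (limma adjusted p = 0.0463). With the block it passed (limma adjusted p = 0.0116). Hmox2, the constitutive haem oxygenase, had 73.4 and 71.6 FPKM with R848, against 68.0 and 62.6 in control. Hmox1 was thus at 1.12 and 0.966 times the Hmox2 level with R848, against 0.663 and 0.683 in control.

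Bach1, the haem-sensing repressor of Hmox1 and of ferritin genes (chromosome 16, 87698945 to 87733346, plus strand, protein coding), had 31.1 and 24.9 FPKM with R848, against 30.4 and 30.8 in control. Mouse 4050 hardly differed and mouse 4182 was lower with R848 (log2 differences of 0.03 and -0.29). The difference of -0.13 did not pass (95% interval -0.55 to 0.29, limma adjusted p = 0.848). The ratio of Hmox1 to Bach1 was 2.63 and 2.77 with R848, against 1.48 and 1.39 in control.

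**Figure D3:**
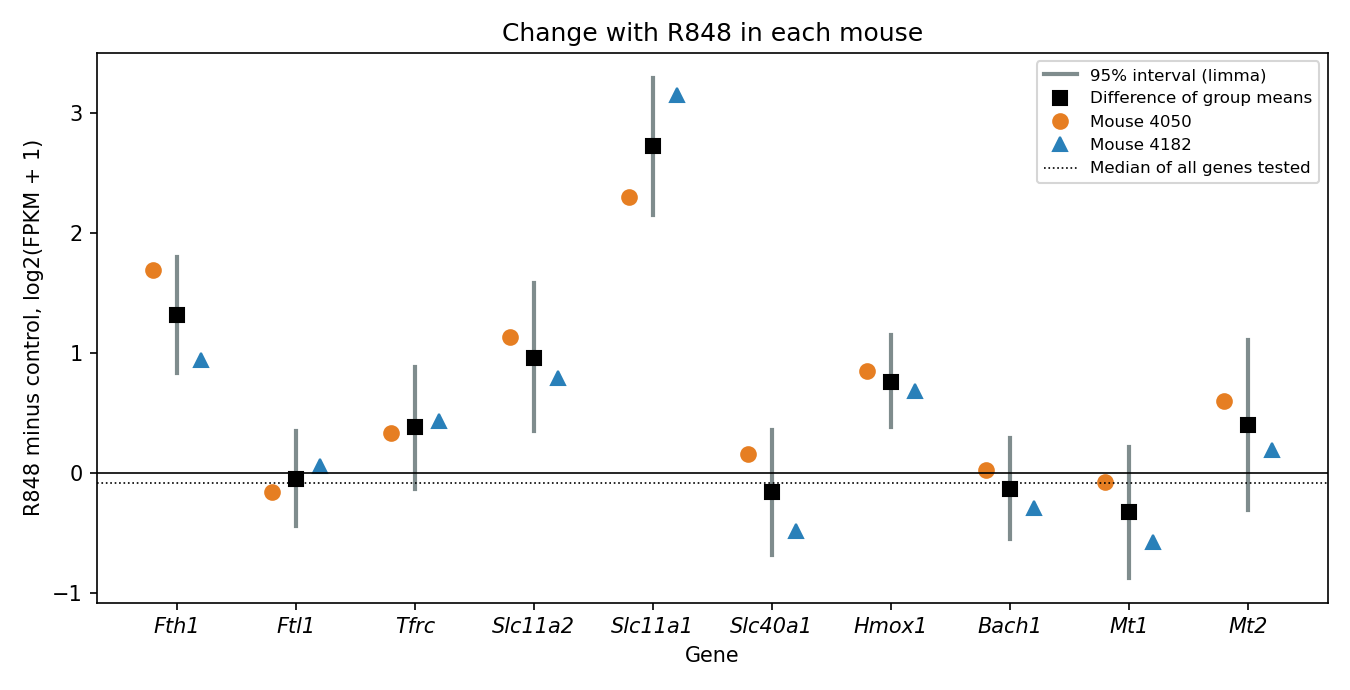
Difference between R848 and control on the log2(FPKM + 1) scale for each gene, with squares for the group means, grey lines for the 95% interval of limma without the block, circles for mouse 4050 and triangles for mouse 4182. Slc11a1 and Fth1 lie highest, at 2.72 and 1.32, and the mice lie on opposite sides of 0 for Ftl1, Slc40a1 and Bach1.

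The metallothioneins Mt1 and Mt2, small cysteine-rich proteins that bind zinc and copper, lie next to each other on chromosome 8 (94179082 to 94180327 and 94172664 to 94173568, both on the plus strand and protein coding), 5513 bases apart. Their promoter windows, from 250 bases before to 50 after the start in RefSeq on GRCm38.p6, are shown because both genes are textbook targets of the zinc sensor MTF1, which binds metal response elements. Capitals mark the core of that element, TGCACNC or TGCGCNC, on either strand.
Mt1 (chr8:94178839-94179138, plus strand): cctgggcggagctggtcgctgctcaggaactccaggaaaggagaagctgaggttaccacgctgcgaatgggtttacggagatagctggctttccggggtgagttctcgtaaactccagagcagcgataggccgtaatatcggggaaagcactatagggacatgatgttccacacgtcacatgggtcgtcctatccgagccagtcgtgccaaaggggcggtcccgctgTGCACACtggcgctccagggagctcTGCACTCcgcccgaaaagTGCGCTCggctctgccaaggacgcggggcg
Mt2 (chr8:94172368-94172667, plus strand): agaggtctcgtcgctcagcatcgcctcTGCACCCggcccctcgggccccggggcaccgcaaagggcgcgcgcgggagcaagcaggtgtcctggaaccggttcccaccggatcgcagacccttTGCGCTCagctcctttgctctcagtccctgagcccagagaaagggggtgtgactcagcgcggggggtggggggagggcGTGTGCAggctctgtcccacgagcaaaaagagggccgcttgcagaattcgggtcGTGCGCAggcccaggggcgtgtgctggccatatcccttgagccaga
Mt1 had 3 matches, all on the printed strand, and Mt2 had 4, of which 2 were on the other strand. Of 32851 promoter windows of the same length, 25.7% held at least 1 match, 1.97% at least 3 and 0.517% at least 4. Windows were found for 7 of the 10 genes. Tfrc and Fth1 had 2 windows each. Matches were also held by 1 window of Tfrc and by that of Bach1. The other window of Tfrc and those of Fth1, Ftl1 and Slc11a1 held none. No window was found for Slc40a1, Slc11a2 and Hmox1. The core of the antioxidant response element, TGACNNNGC on either strand, was found among the 7 genes in the Mt2 window alone, without overlap with the metal response elements, and in 12.4% of all windows. A match is a description of letters and not a bound site.

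Neither metallothionein passed the test. Mt1 had 749 and 838 FPKM with R848, against 788 and 1244 in control. It was lower with R848 in both mice, by little in mouse 4050 (-0.07) and by more in mouse 4182 (-0.57). The log2 difference of -0.32 had a 95% interval of -0.87 to 0.22 (limma adjusted p = 0.68, and adjusted p = 0.402 with the block). Mt2 had 113 and 158 FPKM with R848, against 73.9 and 138 in control. It was higher with R848 in both mice, by 0.60 and 0.19 on the log2 scale, with overlapping groups. The difference of 0.40 had a 95% interval of -0.31 to 1.11 (limma adjusted p = 0.699, and adjusted p = 0.225 with the block). The neighbours thus differed in sign from each other in both mice, and the ratio of Mt1 to Mt2 was 6.64 and 5.32 with R848, against 10.7 and 9.04 in control. Between the mice they went the same way. Mouse 4182 was above mouse 4050 by 0.16 (Mt1) and 0.48 (Mt2) on the log2 scale with R848, and by 0.66 and 0.89 in control.

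The order of the levels differed between the groups at a few places. With R848 the order by mean FPKM was Ftl1 (3978), Fth1 (1229), Mt1 (794), Tfrc (236), Mt2 (135), Hmox1 (75.6), Slc11a1 (58.8), Slc40a1 (40.8), Bach1 (28.0) and Slc11a2 (18.8), and no neighbours in that order overlapped. In control it was Ftl1 (4107), Mt1 (1016), Fth1 (498), Tfrc (182), Mt2 (106), Slc40a1 (44.7), Hmox1 (43.9), Bach1 (30.6), Slc11a2 (8.94) and Slc11a1 (8.3). There Slc40a1 and Hmox1 overlapped, as did Slc11a2 and Slc11a1. Ftl1 ranked 16 and 15 among all symbols by FPKM with R848 and 15 and 19 in control. Fth1 ranked 119 and 129 with R848 and 312 and 235 in control.

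The other genes of the pathways were taken as 4 lists, each with at most 1 gene called without the block. Over all genes tested 1.47% were called higher and 0.381% lower, and 3.40% and 1.90% with the block. Of 16 tested iron regulation genes 1 rose and 0 fell (2 and 0 with the block), with a median difference of -0.06. Cp, ceruloplasmin, a copper enzyme that oxidises iron leaving cells through ferroportin, had 38.4 and 88.6 FPKM with R848, against 5.23 and 6.81 in control. Its log2 difference of 3.09 (SE 0.36, limma adjusted p = 0.00928) was above 2 in both mice. Without the block the call ended after quantile normalization (adjusted p = 0.0692), after median log ratio scaling (adjusted p = 0.0596), with a robust variance prior (adjusted p = 0.0661) and with no filter (adjusted p = 0.491). With the block it held unscaled (adjusted p = 1.9e-06), after median log ratio scaling (adjusted p = 5.5e-04) and after quantile normalization (adjusted p = 9.2e-04). The second gene called with the block was Lcn2, which binds bacterial iron carriers and was named after its values were seen. It had 1995 and 1382 FPKM with R848, against 1143 and 861 in control (log2 difference 0.74, limma adjusted p = 0.239, and adjusted p = 0.0146 with the block). Fbxl5, Ireb2, Aco1 and Ncoa4, the sensor, the RNA-binding regulators and the ferritin-degradation receptor, were named for their roles, after their values were seen. They had differences of 0.39, -0.16, 0.05 and -0.16, none of which passed.

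Of 16 tested haem genes 1 rose and 0 fell with either fit, with a median of 0.04. It was Blvrb, a biliverdin reductase, with 68.8 and 101 FPKM with R848, against 35.7 and 38.6 in control (log2 difference 1.15, SE 0.21, limma adjusted p = 0.0466). Its call ended without any 1 of the 4 samples in turn (adjusted p from 0.0502 to 0.235), after quantile normalization (adjusted p = 0.162), after median log ratio scaling (adjusted p = 0.134), with a constant variance prior (adjusted p = 0.0822) and with no filter (adjusted p = 0.578). With the block the adjusted p was 9.7e-04. Of 17 tested zinc genes 1 rose and 0 fell with either fit, with a median of -0.02. It was Slc39a4, a zinc importer, with 14.8 and 16.1 FPKM with R848, against 6.53 and 7.06 in control (log2 difference 1.07, SE 0.18, limma adjusted p = 0.0347). That call also ended without any 1 sample (adjusted p from 0.0661 to 0.259), after quantile normalization (adjusted p = 0.0739), after median log ratio scaling (adjusted p = 0.0647) and with no filter (adjusted p = 0.325), and with the block the adjusted p was 0.00647.

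NRF2 and BACH1 are the activator and repressor that share the antioxidant element. Of 26 tested targets and partners of them, 0 were called by limma with or without the block. At an unadjusted p under 0.05, 1 was higher and 0 were lower, beside 656 higher and 798 lower of all 12612 genes tested. Txn1, thioredoxin, had 456 and 459.5 FPKM with R848, against 366 and 327 in control, and Maff, a small partner protein of these factors, had 2.44 and 3.06 FPKM with R848, against 3.41 and 4.55 in control. Their log2 differences were 0.40 and -0.41 (limma adjusted p = 0.349 and 0.588). The list had a median of -0.01, beside -0.08 over all genes tested. Hmox1 and the ferritin genes Fth1 and Ftl1, which are also known targets of these factors, were not counted in it. Their log2 differences were 0.76, 1.32 and -0.05.

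**Figure D4:**
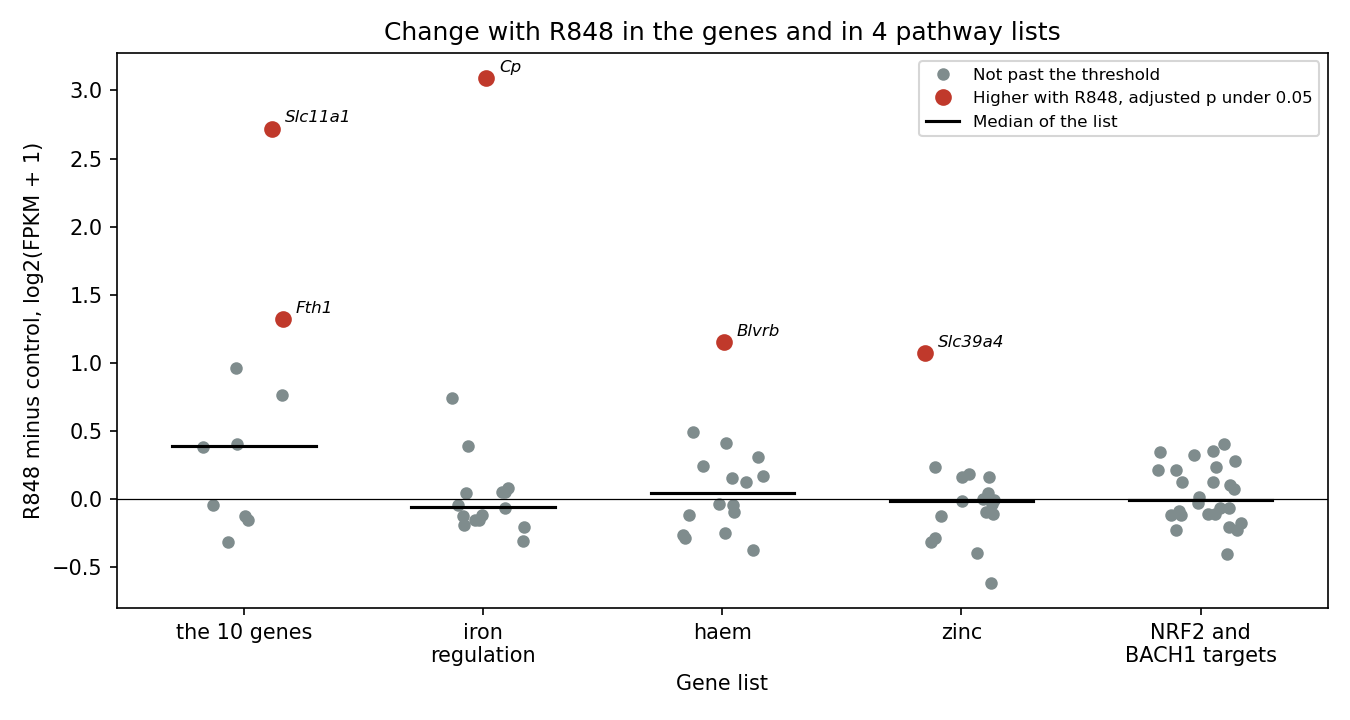
Difference between R848 and control on the log2(FPKM + 1) scale for each tested gene of the 10 and of the 4 pathway lists, with red points for genes past an adjusted p of 0.05 without the block and black lines at the list medians. The medians are 0.39, -0.06, 0.04, -0.02 and -0.01 from left to right, with 2 red points among the 10 genes, 1 in each of the iron, haem and zinc lists and 0 among the NRF2 and BACH1 targets.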

How the data were processed

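RNA sequencing was done on 4 samples, 2 per group. Per the labels' protocols, reads were paired and 150 nucleotides long, and the protocols name depletion of ribosomal RNA as well as a stranded mRNA kit. Per the submitters' processing notes, kallisto and mm10 were used, and versions, annotation and the step to genes are not given in the sources used here. As deposited by the authors, the values are log2 FPKM by name, with a lowest value of 0. Their linear sums are nearly equal between samples, as those of TPM would be. They hold no counts, so no count model was used and depth is unknown.

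From 28192 rows, 27 with names turned into dates and 91 repeats of a symbol (the highest mean was kept) were dropped. Genes averaging 1 FPKM or more were fitted on log2(FPKM + 1) with limma 3.58.1 (R 4.3.3), taking a trended variance prior (5.27 degrees of freedom beside 2 residual ones), two-sided, with Benjamini-Hochberg adjustment over 12612 genes at 0.05. Per the labels, a number marks 1 animal, which pairs its samples. Their deviations from the group means correlated at 0.289 across genes. The fit without the mouse as a block is the main result, and the blocked value is given where it changes a call. P-values rest on 2 samples per group and a spread shared across genes. With the block only 1 residual degree of freedom is left beside that shared spread. The fit was tested on simulated data. Alternatives were pseudocount 0.1, no filter, 5 FPKM, the block, quantile and median log ratio scaling with and without it, a constant or robust variance prior, a 2-fold minimum and leaving out each sample.

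Members and lists were chosen with earlier results of these data known. All 10 members are described. From each pathway list (iron regulation, haem, zinc, NRF2 and BACH1 targets) up to 3 called genes per direction are named, or else the 2 with the smallest p. Marker lists (erythroid, resident macrophage, neutrophil, B and plasma cell, T and NK cell, progenitor) are given by counts and sums, and 3 erythroid markers were not matched. Positions come from GENCODE M21 on GRCm38 and promoter windows from RefSeq on GRCm38.p6. Figures were drawn with matplotlib 3.10.9.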

Additional observations from a re-analysis of the deposited data

How the results depend on the processing

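Depth is unknown, so no counting error could be set beside the values, and 2 samples per group leave few calls that hold under every setting. The directions of Slc11a1, Fth1, Slc11a2, Hmox1 and Tfrc held under all 15 alternatives. Over them the log2 difference ran from 2.39 to 3.05 for Slc11a1, which passed in 13, from 1.07 to 1.56 for Fth1, which passed in 9, from 0.63 to 1.30 for Slc11a2, which passed in 3, from 0.64 to 0.89 for Hmox1, which passed in 4, and from 0.14 to 0.62 for Tfrc, which passed in 0.

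Of the 10 genes, those called higher numbered 2 without the block and 4 with the replicate block, which stayed 4 with the block and median log ratio scaling and 4 with the block and quantile normalization. They numbered 1 after quantile normalization, 1 after median log ratio scaling, 1 with a constant variance prior and 0 with no filter, and from 0 to 2 when 1 sample was left out. None was called lower under any setting. With no filter none of Cp, Blvrb, Slc39a4, Txn1 and Maff passed either. Over all genes, 185 higher and 48 lower without the block became 429 and 240 with the replicate block, 404 and 145 with it and median log ratio scaling, and 354 and 136 with it and quantile normalization. Without the block there were 76 and 12 after quantile normalization, 91 and 15 after median log ratio scaling, 1 and 22 with no filter and, with a robust prior, 99 lower. Leaving out 1 sample gave from 46 to 259 higher and from 10 to 136 lower. The cause of these shifts was not tested.

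Of the genes that did not pass, Ftl1, Slc40a1, Bach1, Mt1 and Mt2 changed sign under at least 1 setting. Ftl1 was at 0.07 after quantile normalization, with or without the block, at 0.03 after median log ratio scaling, with or without the block, and at 0.0029 without the control and 0.01 without the R848 sample of mouse 4050. Leaving out 1 sample at a time, the log2 difference ran from -0.11 to 0.01 for Ftl1, from -0.46 to 0.15 for Slc40a1, from -0.29 to 0.02 for Bach1, from -0.65 to 0.01 for Mt1 and from -0.04 to 0.84 for Mt2. With the mouse as a replicate block no call other than those of Slc11a2, Hmox1 and Lcn2 changed among the pathway genes and members named.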
